A study of Mus musculus with 4 samples.

Results

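The genes described are Slfn2, Slfn3, Slfn8, Slfn9, Samd9l, Rtp4, Phf11d, Tor3a, Isg20 and Samhd1, 10 mouse genes known as interferon-inducible or antiviral restriction factors, taken by name. All 10 had at least 1 probe on the arrays and 16 probes in all, and 9 were among the 24865 genes tested. Slfn3, whose single probe was not well above background on any array, was the exception. Intestinal stem cells were sorted by flow cytometry as Lgr5-high cells, from Ifnar1-/-:Lgr5-EGFP-Ires-CreERT2 mice (called knockout, 2 samples) and from Lgr5-EGFP-Ires-CreERT2 mice (called control, 2 samples). The Ifnar1 protein is part of the type I interferon receptor, and the labels tie its loss to no single cell type. Animals of both groups carried the Lgr5 reporter knock-in and had been given poly(I:C), a mimic of viral double-stranded RNA, into the peritoneum at 2 mg/kg daily for 1 week. No untreated arm was analysed here, and the labels used here give no age and do not say whether samples were pooled or came from separate animals.

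Type I interferon binds its receptor on the cell surface and activates the transcription factor complex ISGF3, which enters the nucleus and switches on a large set of genes. Restriction factors are the products of such genes that block a step of viral growth inside the cell, for instance by destroying viral RNA, by emptying the pool of DNA building blocks or by halting translation. Schlafen proteins form a family that expanded in rodents and act on cell quiescence and on RNA. In the intestine, stem cells at the crypt base renew the whole lining, and interferon signalling in the epithelium is known to affect how they behave.

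Each sample was hybridised to its own single-colour array. Values are log2 signals relative to the 75th percentile of the array, so that 0 is the brightness of a spot at that percentile, and levels are not compared between genes because probes differ in brightness. Slides and scans followed the replicate number, with knockout 1 and control 1 on slide 1 and knockout 2 and control 2 on slide 2. Between 63.3% and 67.7% of non-control spots were well above background and 0 were saturated, and the number of arrays limits the precision. The targeted gene Ifnar1 was at -1.98 ± 0.36 in the knockout and -0.25 ± 0.10 in the control (SD, n = 2 each), and Lgr5, the receptor that defines the sort, was at 3.17 ± 0.27 in the knockout and 2.97 ± 0.15 in the control. The 9 stem cell markers with a probe were well above background on all 4 arrays. Summed levels of leukocyte markers ran from 249 to 371 in the knockout and from 254 to 382 in the control (linear signal relative to the 75th percentile, 19 of 20 genes with a probe, 14 to 16 well above background in the knockout and 14 in the control). One marker, Itgam, made up most of that sum, and without it the other 18 summed to 34.8 to 38.9 in the knockout and 41.0 to 41.9 in the control. Of these, Lyz2 was 6.24-fold lower in the knockout. Gzma, Cd8a and Cd3g, 3 of the 16 leukocyte markers tested, had both knockout arrays above both controls, as had 14.2% of all genes tested. Cd3g was not well above background on either control array, so it was tested only because of its knockout signal. The leukocyte markers Ms4a1, Laptm5 and Coro1a were below background throughout, whereas Ptprc was well above it on all 4 arrays. Summed Paneth cell markers ran from 124 to 200 in the knockout and from 478 to 617 in the control (7 of 12 genes with a probe, all well above background on every array). Summed enterocyte markers ran from 64.8 to 67.8 in the knockout and from 43.4 to 51.8 in the control, and Fabp2 made up most of that sum. Of the 6, 5 were higher on both slides (33.6% of all genes), and 0 were called in either limma fit described below. One of the 5, Lct, was well above background on only 1 control array and was tested because of its knockout signal. Summed goblet cell markers overlapped, from 107 to 148 in the knockout and from 139 to 143 in the control. Of the 6, 4 differed in direction between slides and 0 were called in either limma fit described below. Among them, Spink4 was 2.93-fold lower in the knockout (slide-blocked limma, adjusted p = 0.06), while Clca1 was 1.58-fold higher. The part of these other cell types in the results that follow was not tested.

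The differences spanned a wide range. Phf11d was 22.5-fold, Rtp4 21.9-fold, Samd9l 5.19-fold and Slfn2 3.21-fold lower in the knockout, whereas Tor3a, Isg20, Samhd1, Slfn8 and Slfn9 were 1.1-fold to 1.91-fold lower by their brightest probes. Of the 9 tested genes, 8 had the lower signal in the knockout sample of each slide, as had 27.5% of all genes tested, and 8 had both knockout arrays below both control arrays, as did 11.5% of all genes tested. Isg20 was the exception in both counts. Of the 9, 0 were higher on both slides (33.6% of all genes), and 0 had both knockout arrays above both control arrays (14.2%). The median difference, knockout minus control, was -0.93 (log2), with -1.73 on slide 1 and -0.47 on slide 2, beside 0.02 over all genes tested. Less RNA per cell and fewer cells that hold the RNA cannot be told apart in bulk samples such as these.

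By limma over all 24865 genes, the fit without a slide term called 0 of the 9 genes (0% of all genes tested were called lower). At an unadjusted p under 0.05 that fit held 5 of the 9 as lower (1.72% of all genes). Since each slide held both groups, the fit was repeated with the slide, which is also the replicate number, as a block. It called Rtp4 and Samd9l lower, 2 of the 9, where 0.43% of all genes were called lower and 0.0563% higher. At an unadjusted p under 0.05 the blocked fit held 7 of the 9 as lower (5.14% of all genes) and 0 as higher (7.3%). The number of calls moved with the processing: in 4 further blocked fits, with quantile scaling, normexp background correction, a stricter filter or spots averaged on the log2 scale, 103 to 227 genes were called lower. Rtp4 and Samd9l passed in all 4, Phf11d in 2 and Slfn2 in 1, and the listed genes described below as fallen passed in each of the 4 that tested them. Both calls rest on the intensity trend in the variance model, since without it the blocked fit gave adjusted p-values of 0.457 for Rtp4 and 0.429 for Samd9l (limma). In what follows a gene is said to have fallen only where the blocked fit called it. The p-values reflect only how far these samples spread, and that spread may be technical.

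**Figure D1:**
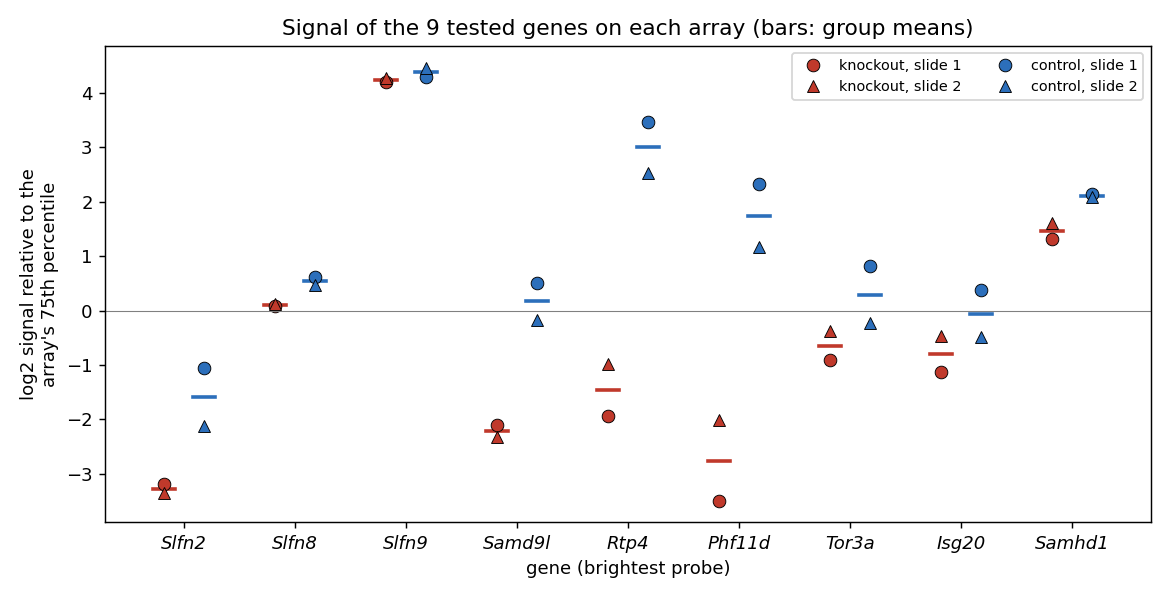
Log2 signal with each array's 75th percentile at 0 (vertical axis) for the 9 tested genes (horizontal axis), with knockout arrays in red left of control arrays in blue, circles for slide 1, triangles for slide 2 and bars for the mean of 2 arrays. Rtp4, Phf11d and Samd9l show wide gaps between the groups, Slfn9 has nearly coincident points, and the Isg20 points of slide 2 lie at -0.46 in the knockout and -0.48 in the control.

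Rtp4 had the larger fall of the 2 genes called. It encodes a receptor transporter protein, a chaperone that brings certain receptors to the cell surface, and is known to bind viral RNA and to limit flavivirus growth. Its signal was -1.93 and -0.98 in knockout samples 1 and 2, against 3.47 and 2.53 in control samples 1 and 2. Both knockout values lay far below both control values. Rtp4 was lower by 4.45 on the log2 scale, or 21.9-fold (SE 0.41; slide-blocked limma, adjusted p = 0.0217; unblocked adjusted p = 0.225). The difference was 42.1-fold on slide 1 and 11.4-fold on slide 2, and both knockout samples still gave an Rtp4 signal well above background. Of its relatives Rtp1, Rtp2 and Rtp3, only Rtp2 passed the filter on dim probes, and it differed by -0.23 (slide-blocked limma, adjusted p = 0.673). Rtp4 lies on chromosome 16, as does Ifnar1, while the other 9 genes lie on chromosomes 1, 2, 6, 7, 11 and 14.

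Samd9l, a large cytoplasmic protein that restricts poxviruses and slows translation, fell on both of its probes. Its brighter probe read -2.11 and -2.31 in knockout samples 1 and 2, against 0.50 and -0.17 in control samples 1 and 2. The knockout samples were close to each other and below both controls. That is 5.19-fold lower in the knockout (log2 difference -2.38, SE 0.19; slide-blocked limma, adjusted p = 0.0148; unblocked adjusted p = 0.295). The other probe read -2.24 and -3.16 in knockout samples 1 and 2, against 1.01 and -0.24 in control samples 1 and 2. It gave an 8.49-fold lower signal (limma on every kept probe with slide block, adjusted p = 0.00499, where 0.381% of probes were called lower). The log2 difference of the brighter probe was -1.56 with normexp background correction. Mice carry Samd9l and lack its sister gene Samd9, so this family has 1 member here.

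Phf11d differed about as much as Rtp4 and did not pass over all genes. It encodes a PHD finger protein, a class that reads histone tails, and its human relative PHF11 is known as a nuclear regulator in lymphocytes. The signal of Phf11d was -3.49 and -2.02 in knockout samples 1 and 2, against 2.32 and 1.16 in control samples 1 and 2. The groups were far apart, yet the knockout samples also differed from each other by more than 1 log2 unit. Phf11d was 22.5-fold lower in the knockout (log2 difference -4.49, SE 0.58; slide-blocked limma, adjusted p = 0.0568; unblocked adjusted p = 0.295), with 56.2-fold on slide 1 and 9.05-fold on slide 2. With every kept probe tested by itself and the slide as a block, the same probe passed (limma, adjusted p = 0.0466). With normexp background correction its log2 difference was -3.01, against -3.72 for Rtp4, so the order of these 2 genes is not settled.

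Of the relatives of Phf11d, 1 was called lower. Phf11a, Phf11b and Phf11c were measured, 3 of the 4 genes listed with Setdb2, which had no probe named here. All 3 were lower on both slides, as were 27.5% of all genes tested. The blocked fit called Phf11a, 1 of the 3, beside 0.43% of all genes. Phf11c passed the filter on dim probes through the control alone, so it had to differ. Phf11a fell 14.0-fold, with -3.61 and -2.75 in knockout samples 1 and 2, against 1.19 and 0.07 in control samples 1 and 2 (slide-blocked limma, adjusted p = 0.046). Phf11c was not well above background on either knockout array and was at least 2.96-fold lower in them, and no p-value is given. This bound sets the control mean against a detection limit for the knockout arrays. That limit was taken per array as the dimmest signal counted as well above background, or as the probe's own signal if that was higher. Phf11b had differences of -1.15 (slide 1) and -0.03 (slide 2) and did not pass (slide-blocked limma, adjusted p = 0.478). These genes are close copies of each other, so a transcript of one may light the probe of another.

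Among the Schlafen genes, the differences ran from strong in Slfn2 to nearly nil in Slfn9. Slfn2, a short Schlafen known in mice for keeping T cells and monocytes quiescent, read -3.18 and -3.36 in knockout samples 1 and 2, against -1.05 and -2.12 in control samples 1 and 2. Both knockout values were below both controls, and the 2 controls stood further apart than the 2 knockout samples. Slfn2 was 3.21-fold lower in the knockout (log2 difference -1.68, SE 0.31), with 4.37-fold on slide 1 and 2.36-fold on slide 2, and did not pass (slide-blocked limma, adjusted p = 0.146). With normexp background correction its log2 difference was -0.74, below the size of Tor3a's -0.77, and it passed in the blocked fit on those values (limma, adjusted p = 0.0425).

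Slfn8 and Slfn9 are long Schlafen genes that carry a helicase-like part and sit beside each other. The brightest probe of Slfn9 read 4.20 and 4.27 in knockout samples 1 and 2, against 4.28 and 4.46 in control samples 1 and 2, a 1.1-fold lower signal (log2 difference -0.14, SE 0.08; slide-blocked limma, adjusted p = 0.52). Its other probe differed by -0.12, and there the groups overlapped. Over both probes and both slides, the lowest Slfn9 difference was -0.24. The brightest probe of Slfn8 read 0.08 and 0.12 in knockout samples 1 and 2, against 0.62 and 0.46 in control samples 1 and 2. That is 1.36-fold lower (log2 difference -0.44, SE 0.13; slide-blocked limma, adjusted p = 0.322).

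The 2 probes of Slfn8 disagreed in size. The other one, assigned to a different RefSeq transcript of the gene, read -5.78 and -4.75 in knockout samples 1 and 2, against -2.36 and -3.32 in control samples 1 and 2. It was not well above background on either knockout array and was on both control arrays, so that it was at least 3.0-fold lower in the knockout. The probe passed the filter on dim probes through the control alone, so it had to differ, and no p-value is given.  Probe sequences were not used here, and the long Schlafen genes resemble each other closely, so a probe named for Slfn8 or Slfn9 may read several of them.

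The other Schlafen genes of the cluster were dim or differed little. Along chromosome 11 the order is Slfn5, Slfn9, Slfn8, Slfn10-ps, Slfn2, Slfn1, Slfn4, Slfn3 and Slfn14 in RefSeq assembly GRCm38.p6. Slfn10-ps, annotated as a pseudogene by its name, differed by -0.47 with both knockout arrays below both controls (slide-blocked limma, adjusted p = 0.179). Slfn14 differed by 0.01, with 0.47 on slide 1 and -0.45 on slide 2, and Slfnl1, a relative outside the cluster, by -0.02 (slide-blocked limma, adjusted p = 0.99). Slfn1, Slfn3 and Slfn4 were not well above background on any of the 4 arrays, and Slfn5 was on 1 control array alone. For Slfn3 the probe signals were 3.05 and 2.41 in knockout samples 1 and 2, against 2.51 and 3.72 in control samples 1 and 2 (linear scanner units), and no fold is given. Of the 6 Schlafen genes listed beside the described ones, 3 were tested, 0 were called in either fit, and their median difference was -0.02.

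**Figure D2:**
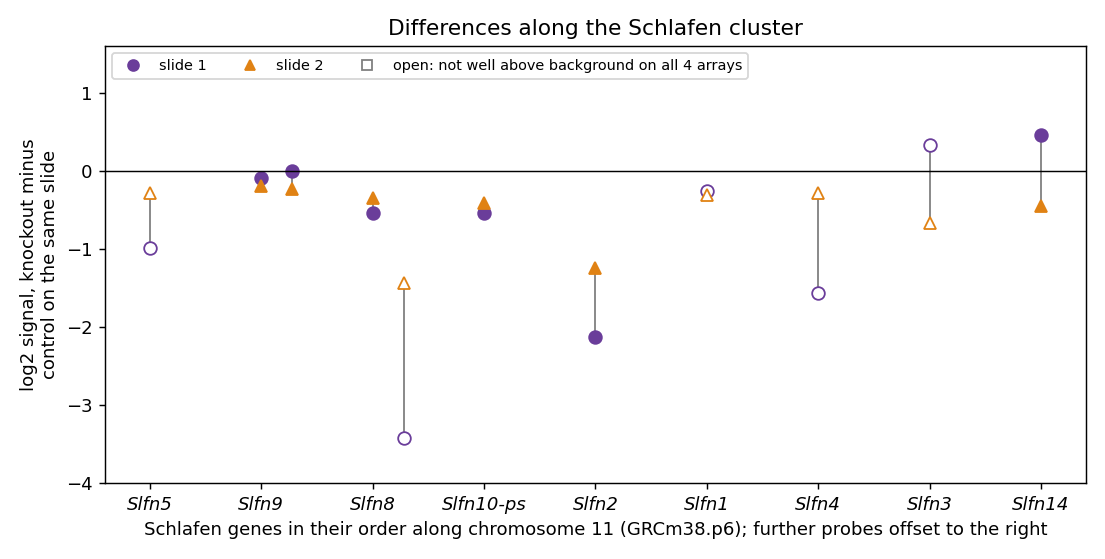
Log2 signal, knockout minus control on the same slide (vertical axis), for each probe of the Schlafen genes in their order along chromosome 11 (horizontal axis), with circles for slide 1, triangles for slide 2 and open marks for probes not well above background on all 4 arrays. Slfn2 lies below -1 on both slides, the brightest probes of Slfn9, Slfn8 and Slfn10-ps lie between -0.54 and -0.09, and the open marks of Slfn1, Slfn3, Slfn4 and Slfn5 carry no measured fold.

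The 250 bases before the transcription start are shown for genes of the family with small and with larger differences, Slfn8, Slfn9 and Slfn2, and for Phf11d, which had one of the largest differences of the 9 (RefSeq, GRCm38.p6, 5′ to 3′ on the gene's strand). Capitals mark the core of the interferon-stimulated response element, which is 2 copies of GAAA with any 2 bases between them, on either strand, the kind of site that ISGF3 binds. The windows are chr11:83020811-83021060 on the minus strand for Slfn8, chr11:82991831-82992080 on the minus strand for Slfn9, chr11:83064862-83065111 on the plus strand for Slfn2 and chr14:59365491-59365740 on the minus strand for Phf11d.
Slfn8: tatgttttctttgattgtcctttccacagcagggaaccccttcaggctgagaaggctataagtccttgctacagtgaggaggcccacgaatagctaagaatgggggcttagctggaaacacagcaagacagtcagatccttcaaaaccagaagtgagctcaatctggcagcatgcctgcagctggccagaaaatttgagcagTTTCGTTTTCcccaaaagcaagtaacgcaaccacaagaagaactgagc
Slfn9: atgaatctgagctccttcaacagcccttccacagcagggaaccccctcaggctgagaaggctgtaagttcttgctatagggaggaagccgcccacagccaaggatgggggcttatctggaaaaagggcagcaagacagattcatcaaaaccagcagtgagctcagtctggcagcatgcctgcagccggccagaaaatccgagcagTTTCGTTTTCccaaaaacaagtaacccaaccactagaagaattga
Slfn2: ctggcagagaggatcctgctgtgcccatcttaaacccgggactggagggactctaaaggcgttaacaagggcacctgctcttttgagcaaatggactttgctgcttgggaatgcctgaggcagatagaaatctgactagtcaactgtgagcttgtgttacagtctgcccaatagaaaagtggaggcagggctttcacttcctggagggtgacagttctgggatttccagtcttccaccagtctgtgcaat
Phf11d: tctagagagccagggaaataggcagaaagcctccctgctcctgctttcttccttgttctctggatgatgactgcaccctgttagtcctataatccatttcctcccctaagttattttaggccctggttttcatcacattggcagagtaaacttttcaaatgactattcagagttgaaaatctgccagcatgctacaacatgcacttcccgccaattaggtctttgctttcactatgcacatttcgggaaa

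Slfn8 and Slfn9 carried the same match, TTTCGTTTTC, which reads as the core on the opposite strand and begins at -48 in Slfn8 and at -45 in Slfn9. Their windows were identical at 80.2% of 262 aligned columns. The table held 11 starts for 8 of the 10 genes and none for Rtp4 and Tor3a. The core was found at 3 of those 11 starts, all in Slfn8 (2 overlapping windows) and Slfn9, and at 2.98% of 32851 promoter windows of the same length. Slfn2, Slfn3, Samd9l, Phf11d, Isg20 and Samhd1 had no match to these letters in this window. The letters TTCNNNGAA, the core of the gamma-activated site, a pattern that is its own reverse complement, were found at 1 start of Isg20 and in Samhd1, and at 7.02% of all windows. No window of these genes held both motifs. A match is a description of letters and was not tested as a binding site.

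Samhd1 and Isg20 encode enzymes that cut nucleic acids or their building blocks. Samhd1 breaks down deoxynucleotides and thereby starves reverse transcription. Its brighter probe read 1.32 and 1.62 in knockout samples 1 and 2, against 2.13 and 2.09 in control samples 1 and 2. The groups did not overlap and the controls were nearly equal. Samhd1 was 1.56-fold lower in the knockout (log2 difference -0.64, SE 0.13; slide-blocked limma, adjusted p = 0.169), and its second probe gave 1.56-fold as well, so that its probes gave the same size.

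Isg20, an exonuclease that degrades single-stranded RNA, differed on 1 slide. It read -1.12 and -0.46 in knockout samples 1 and 2, against 0.37 and -0.48 in control samples 1 and 2. Control 1 stood above the other 3 arrays, and the groups overlapped. The difference was -1.49 on slide 1 and 0.02 on slide 2, on average -0.74 (SE 0.35; slide-blocked limma, adjusted p = 0.454). Its second probe showed the same split, with -1.29 on slide 1 and 0.02 on slide 2. Without control 1 the difference was -0.31 and without knockout 1 it was -0.41, against -1.16 without control 2. The 9 listed relatives and other exonucleases had 8 tested genes, 0 called in either fit and a median of 0.05. Of these, Eri1 differed by 0.29 and Rexo2 by 0.15 (slide-blocked limma, adjusted p = 0.513 and 0.58).

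Tor3a, an ATPase of the torsin family in the endoplasmic reticulum, also differed mainly on slide 1. It read -0.92 and -0.37 in knockout samples 1 and 2, against 0.82 and -0.24 in control samples 1 and 2. Both knockout values were below both controls, by a narrow margin on slide 2. Tor3a was 1.91-fold lower (log2 difference -0.93, SE 0.36; slide-blocked limma, adjusted p = 0.395), with 3.32-fold on slide 1 and 1.1-fold on slide 2. Its log2 difference was -0.41 without control 1 and -1.46 without control 2. The other torsins and their cofactors gave 6 tested genes with 0 called and a median of 0.02. Tor1aip1, an activator of torsins at the nuclear envelope, differed by -0.41 and Tor1aip2 by 0.18 (slide-blocked limma, adjusted p = 0.332 and 0.546).

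**Figure D3:**
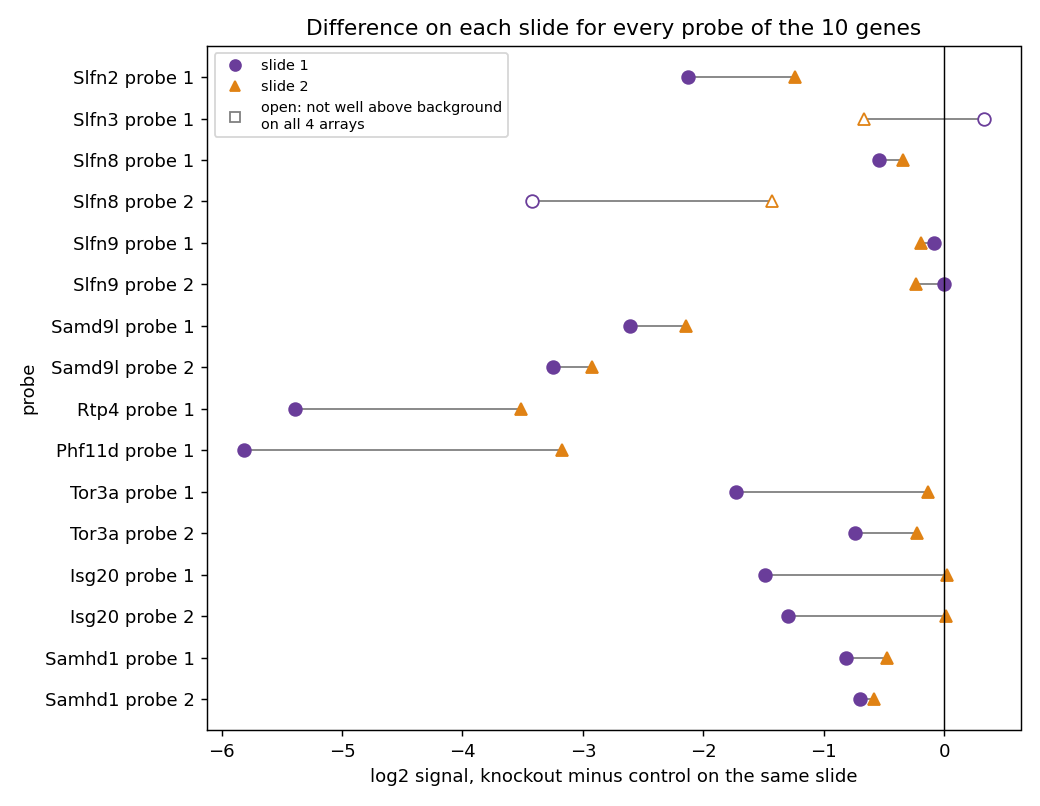
Log2 signal, knockout minus control on the same slide (horizontal axis), for all 16 probes of the 10 genes (vertical axis), with circles for slide 1, triangles for slide 2 and open marks for probes not well above background on all 4 arrays. Both probes of Samd9l and of Samhd1 agree between slides, both probes of Isg20 lie near 0 on slide 2, and the second Slfn8 probe stands apart from the first.

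Slide 1 gave the larger difference for most of the genes. The knockout minus control difference was lower on slide 1 than on slide 2 for 8 of the 9, all but Slfn9, while 48.6% of all genes tested had a lower difference on slide 1. Control 1 was above control 2 for 8 of the 9 genes, again all but Slfn9, against 40.7% of all genes. Knockout 1 was below knockout 2 for 7 of the 9, all but Slfn2 and Samd9l, against 58.5% of all genes. Whether the effect differs between slides could not be tested with 1 array of each group per slide.

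Most other restriction factors were lower too. Of 30 listed genes outside the 10, 28 were tested, 25 were lower on both slides (27.5% of all genes), and their median difference was -1.20, with -1.55 on slide 1 and -0.92 on slide 2. The fit without a slide term called 0 of them, and the blocked fit called 11 lower (0.43% of all genes) and 0 higher. Of the 11, 8 were well above background in both groups, and the other 3, Oas3, Trim30a and Ifit1, passed the filter on dim probes through the control alone. For these 3 only a bound is given, with no p-value, since genes that pass in this way had to differ. They are also among the 25 genes lower on both slides. Oas3, an enzyme that makes the RNase L activator, was at least 132-fold, Trim30a at least 8.77-fold and Ifit1 at least 5.41-fold lower in the knockout. Ifit3 fell 22.9-fold, Rsad2, known as viperin, 11.9-fold and Oas1a 11.1-fold (slide-blocked limma, adjusted p = 0.0361, 0.0131 and 0.00961). Parp14 fell 5.96-fold, the membrane tether Bst2 5.49-fold and the frameshift inhibitor Shfl 3.78-fold (slide-blocked limma, adjusted p = 0.035, 0.0119 and 0.00855). The kinase Eif2ak2 fell 2.07-fold and Ifitm3 1.69-fold (slide-blocked limma, adjusted p = 0.0248 and 0.04). Ifitm2 was the single gene of this list that was higher on both slides, with 0.20 and 0.19 on slides 1 and 2 (slide-blocked limma, adjusted p = 0.389).

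Upstream of these genes, 11 listed signalling genes were tested, and the blocked fit called Ifnar1, the targeted gene, and Irf7 lower (2 of 11, beside 0.43% of all genes). Irf7, a transcription factor of the interferon feedback loop, fell 20.4-fold and Ifnar1 3.31-fold (slide-blocked limma, adjusted p = 0.00855 and 0.0368). The list holds the targeted gene, so its count is not independent of the genotype, and its median was -0.64. The ISGF3 subunits Stat2 and Irf9 differed by -1.15 and -0.93 without passing (slide-blocked limma, adjusted p = 0.103 and 0.137).

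**Figure D4:**
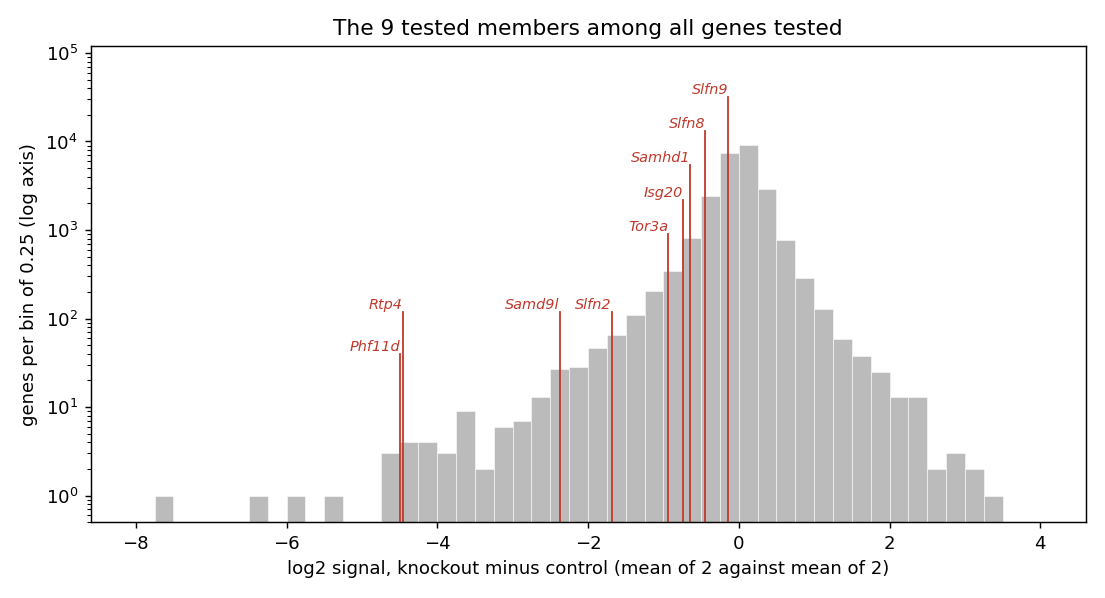
Number of genes per bin of 0.25 (vertical log axis) by log2 signal, knockout minus control (horizontal axis), over the 24865 genes tested, with red lines at the 9 described genes whose heights are for legibility alone. Phf11d and Rtp4 lie in the far left tail, Samd9l and Slfn2 in its shoulder, and Slfn9 near the median of 0.02.

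The size of the differences can be read against all genes tested. Of the 9, 4 were lower by more than 1 on the log2 scale (2.15% of all genes), 3 by more than 2 (0.442%) and 2 by more than 4 (0.0603%). Leaving out any 1 array did not turn the direction of any of the 9. In the fits without a slide term that leave out 1 array, the log2 difference ran from -4.93 to -3.98 for Rtp4. It ran from -5.23 to -3.76 for Phf11d and from -2.71 to -2.04 for Samd9l. With 1 array left in a group, these fits assume that it varies like the other group.

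**Figure D5:**
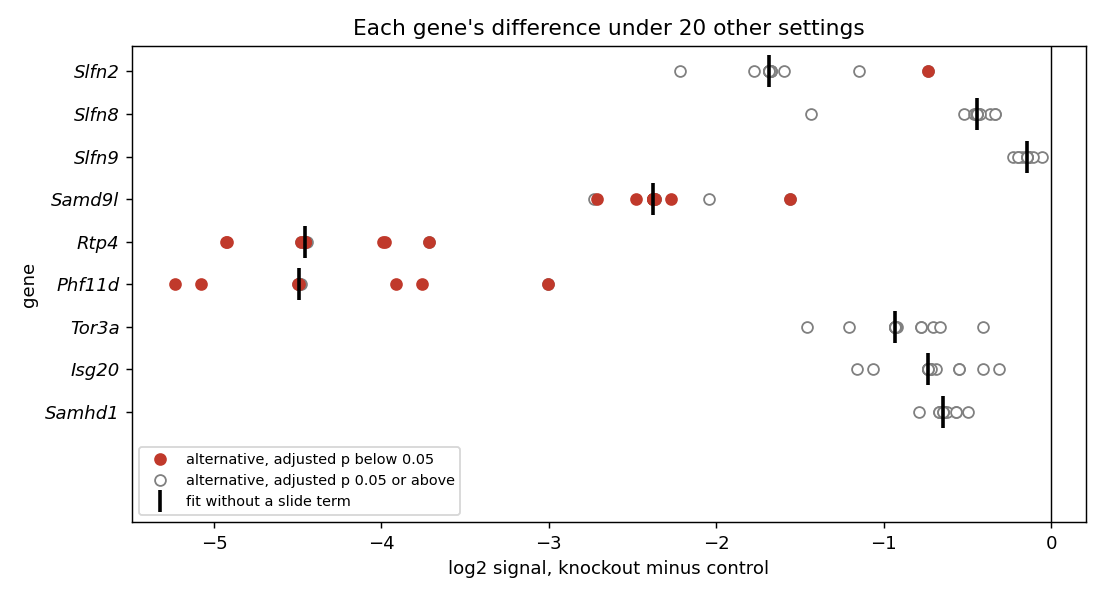
Log2 signal, knockout minus control (horizontal axis), of the 9 tested genes (vertical axis) under 20 other settings, filled red where the adjusted p was below 0.05 and open otherwise (filled points are drawn over open ones at the same value), with a black bar for the fit without a slide term. No point lies above 0, filled points occur for Rtp4, Phf11d and Samd9l and once for Slfn2, and Slfn8 has 1 outlying point, where its brightest probe was averaged with one not well above background in the knockout.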

How the data were processed

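Total RNA from sorted cells was amplified as cDNA, labelled with Cy3 and hybridised to 4 Agilent mouse arrays, per the labels' protocols. As deposited, a scanner table gives the linear intensity of every spot after background correction. The software was Agilent Feature Extraction 12.0.3.1 per the file headers and 11.5.1.1 per the submitters' processing notes. The deposited series table is each array's intensity times 1 constant (5.60 to 6.68), with no gene centring and with column medians of 239 and 223 in the knockout and 249 and 231 in the control. The target of that scaling is unknown. The flags (outlier, saturated, well above background) were used as the authors deposited them.

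Control spots and 111 to 172 outlier spots per array were left out. Spots of a probe were averaged, and log2 signal minus the array's 75th percentile was taken. Of 55681 probes, 35422 were kept because every array of 1 or both groups flagged them as well above background. RefSeq accessions (GRCm38.p6) named 28331 probes and left 27350 unnamed here. The array design uses build mm9, so no probe coordinates are given. A gene is its brightest kept probe with a value on all 4 arrays, which gave 24865 genes.

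Groups were compared with limma 3.58.1 in R 4.3.3, with the prior variance following intensity and p-values adjusted by Benjamini-Hochberg over all genes (threshold 0.05), without a slide term and, as an alternative, with the replicate number as a block. The number marks a shared slide and scan in the file headers, and samples sharing it deviated together (Pearson r = 0.563 across genes, which are not independent, between the knockout 1 minus knockout 2 and control 1 minus control 2 differences). On simulated data of this size (24865 genes), planted log2 differences of 2 and 4 were recovered at 20% and 72% without the block and at 98% each with it. The simulated variances followed the fitted trend of the blocked fit, so that trend is not tested. Genes had no spread of variance around it, and each gene's observed slide difference was added, so the gain from the block was built in. The 98% is therefore not the power of the real arrays. Named genes are the 10 described, Ifnar1, Lgr5, listed genes called by either fit (else the 2 with the smallest unadjusted p) and the 5 nearest profiles; Stat2, Irf9, Slfn14, Ifitm2, Phf11b and Phf11c were added after their values were seen, as were genes named only as below background and single cell type markers. The described genes and the lists were chosen with earlier results of these data known. Alternatives covered the block, scaling, background, the deposited series table, filters, probe rule, variance trend and dropping single arrays. The mean signal column was not used here, so normexp (offset 50) ran on the median signal.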

Additional observations from a re-analysis of the deposited data

How the results depend on the processing

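Under 20 alternatives, the 9 genes gave 180 values, of which 0 changed direction. Of these, 27 passed the threshold where the fit without a slide term did not, in Rtp4 (10), Samd9l (9), Phf11d (7) and Slfn2 (1). With the replicate block, limma called 107 genes lower, 14 higher and 2 of the 9 genes lower, against 0 in each without it. With the block and every kept probe tested by itself, an alternative chosen after seeing the data, the counts were 135, 21 and 3. Further blocked fits chosen after seeing the data gave 121, 22 and 3 with quantile scaling, 227, 135 and 4 with normexp, 103, 19 and 2 with probes well above background on all 4 arrays, and 107, 14 and 2 with spots averaged on the log2 scale. All but the stricter filter, which shared 98, called the 107 genes of the blocked fit again. Leaving out 1 array without the block gave 17 genes lower (without control 1) to 142 (without knockout 2), 0 to 9 higher and 2 to 3 of the 9 genes lower, with the lowest count of the 9 (2) without control 1. The replicate block without the intensity trend called 0 (smallest adjusted p of 0.405, with 1042 genes lower and 1028 higher at an unadjusted p under 0.05). The cause of these shifts was not tested. The median of the 9 genes lay between -1.46 without control 2 and -0.62 without control 1, and was -0.74 with normexp. With a gene's probes averaged it rests on a dim Slfn8 probe, which has only a bound, and is not given. The median of all genes lay between -0.04 and 0.08 in the same alternatives. Without the block, quantile or median scaling, the deposited series table and the filters on dim probes called 0 genes. Unfiltered probes add Slfn3, whose signal was not well above background and so has no measured fold. The number of arrays, and for Slfn2, Phf11d and the second Slfn8 probe the signal over background, limit what can be said.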

Other observations

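Genes that supply deoxynucleotides or regulate Samhd1 were listed beside it, and 17 of 18 were tested. In the knockout, 13 of the 17 were higher on both slides (33.6% of all genes), 8 had both knockout arrays above both control arrays (14.2% of all genes), and their median difference was 0.24, with 0.24 and 0.26 on slides 1 and 2. Both counts include Cdkn1a, which was well above background on only 1 control array and was tested because of its knockout signal. Neither limma fit called any of the 17. At an unadjusted p under 0.05, 0 were higher without the block and 5 with it (7.3% of all genes with the block). Cdk2, a cell cycle kinase whose complexes phosphorylate human SAMHD1, read 1.15 and 0.75 in knockout samples 1 and 2, against 0.54 and 0.14 in control samples 1 and 2. It differed by 0.61 (slide-blocked limma, adjusted p = 0.176). Dctd, a deaminase of the deoxynucleotide pathway, differed by 0.43 (slide-blocked limma, adjusted p = 0.325).

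The 5 named genes with profiles over the 4 arrays nearest to the mean profile of the 9 genes were Gpr18, Defa25, Parp12, Gbp10 and Defa38, by the root mean square distance of values centred on each gene's mean (0.08 to 0.15 on the log2 scale). Gbp10, a guanylate-binding protein, was 3.30-fold lower in the knockout, with 0.86 and 1.24 in knockout samples 1 and 2, against 2.90 and 2.66 in control samples 1 and 2. Defa25 and Defa38, alpha-defensins of Paneth cells, were 3.47-fold and 3.44-fold lower. Parp12, an interferon-inducible ADP-ribosyltransferase, differed by -1.89. Gpr18, a lymphoid receptor, was not well above background on either knockout array and was at least 2.48-fold lower in them. The nearness rests on 4 arrays, and since these genes were chosen for it, no test is given.

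Lyz2 was the single one of 16 tested leukocyte markers called lower by the blocked fit (0.43% of all genes), with -0.74 and 0.15 in knockout samples 1 and 2, against 2.08 and 2.61 in control samples 1 and 2 (slide-blocked limma, adjusted p = 0.005). All 7 tested Paneth cell markers were called lower in that fit (0.43% of all genes). Among these 7, Lyz1 fell 4.04-fold, and whether the Lyz2 probe also reads Lyz1 was not tested.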
